A study of Mus musculus with 17 samples.

Results

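Common myeloid progenitors are blood-forming cells that give rise to granulocytes, monocytes, red cells and platelets. They work in the liver before birth and in the bone marrow afterwards. Here the messenger RNA of these cells was compared between wild-type fetal liver (3 libraries, numbered 1, 4 and 5) and wild-type adult bone marrow (3 libraries, numbered 2, 5 and 6), which are 6 of the 17 libraries in the series. The libraries were chosen by their labels and described across all genes. All 6 came from C57BL/6J mice and from cells that the labels give as sorted by flow cytometry. The labels state no age in days, no sex and no number of animals per library. So p-values measure the spread between libraries, and how far it is technical is not known. A doxycycline treatment to induce Lin28b is given for every sample in the labels, wild type included, and whether these mice received it is not stated. The other libraries, from Lin28b knockout, let-7b/c knockout, inducible let-7 and inducible LIN28B mice, entered through the shared estimate of the spread between replicates and the choice of genes with enough counts to test. With the wild-type libraries alone 10312 genes were tested.

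Blood progenitors of the fetus divide and expand the blood system, whereas those of the adult replace lost cells and respond to infection. Such cells are known to differ in protein synthesis, mitochondrial content and exposure to interferon, the signal that switches on antiviral genes and the display of antigens on major histocompatibility complex (MHC) proteins. Messages are given in CPM, the count of a gene scaled to the total count of its library, and a level in CPM is not divided by gene length, so it is compared between groups and not between genes. A gene was called when its Benjamini-Hochberg adjusted p in edgeR's quasi-likelihood test was under 0.05.

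Counts on transcripts ranged from 17899593 to 21771484 in the fetal liver libraries and from 15712282 to 19086842 in the bone marrow libraries. The root-mean-square log2 distance between libraries was 0.633 to 0.718 within fetal liver, 0.754 to 0.815 within bone marrow and 1.09 to 1.20 between the tissues. Adult library 5 stood apart by 1 measure. The chi-square per degree of freedom of its counts was 25.97 and 28.4 against the other adult libraries, which gave 12.3 against each other. Its log2 distances to them were 0.815 and 0.787, against 0.754 between those 2. Without it 1590 genes were called higher and 1411 lower, within the range of leaving out any 1 library (1484 to 1723 and 1307 to 1454). A list of genes that respond to cell handling and stress holds immediate early genes and Hspa8, a heat shock chaperone. It summed to 10918 to 11651 CPM in fetal liver and 7504 to 10147 CPM in bone marrow. Hspa8 made up most of that sum, at a mean of 10432 CPM against 8286 CPM. Its call (1.26-fold) was lost without any 1 fetal library or without adult library 2 (adjusted p = 0.0586 to 0.134). Of the 17 tested members 3 were called higher and 0 lower. The higher share was 17.6%, near the 13.9% of all tested genes. The median log2 difference was -0.12, and their part was not tested. The share of uniquely placed reads outside any transcript was 11.1% to 12.8% in fetal liver and 18.1% to 19.1% in bone marrow, and its part in the results was not tested. The sexes of the animals were not balanced between the groups as far as sex-linked messages show. Xist, the RNA that silences an X chromosome in females, was at 107, 45.8 and 6.82 CPM in fetal liver libraries 1, 4 and 5 and at most 0.274 CPM in the adult libraries. Ddx3y, from the Y chromosome, was at 0.0908, 53.7 and 93.5 CPM in the same fetal libraries and at 137 to 151 CPM in all 3 adult ones. The levels of both messages differed between the fetal libraries, so these were not repeats of 1 RNA sample. Fetal library 4 held both messages, and the labels do not say whether animals were pooled. The part of sex in the results was not tested.

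In fetal liver 1887 genes were higher and 1789 lower than in bone marrow, of 13556 tested (27.1% called, 13.9% higher and 13.2% lower). Most of the higher genes moved little: the median fold of the genes called higher was 1.48, and that of the genes called lower was 1.91. At 2-fold or more, 398 genes were higher and 838 lower, and at 16-fold or more 82 were higher and 132 lower. Many of the 16-fold genes had low CPM. Those without overlap between the groups numbered 208, and 77 where a mean of 5 CPM in either tissue was required. The 3 fetal libraries and the 3 adult ones did not overlap in 3647 of the 3676 called genes, against 6480 (47.8%) of all tested genes. The median log2 difference over all tested genes was -0.08, fetal minus adult.

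**Figure D1:**
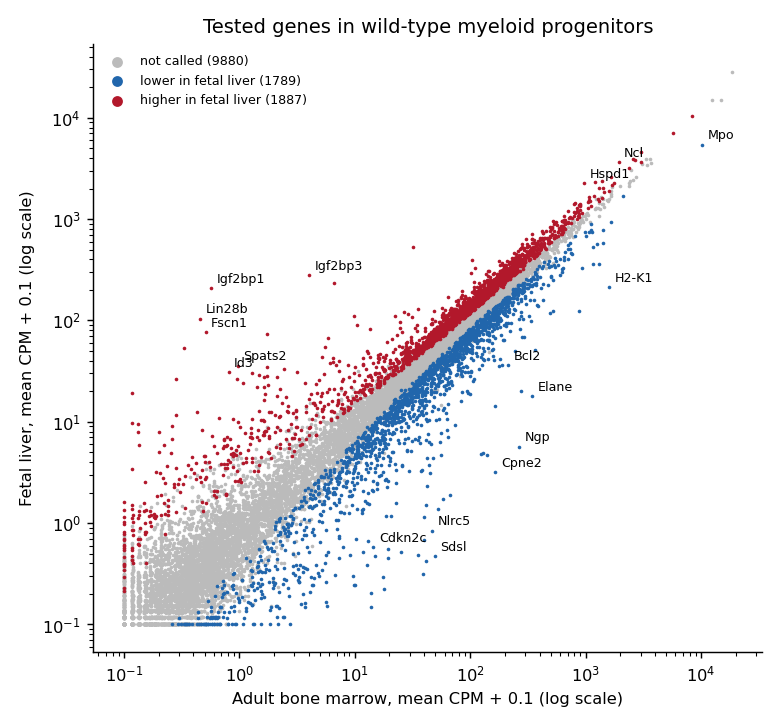
Mean CPM in adult bone marrow (horizontal) and fetal liver (vertical), each plus 0.1, on log axes, with 1 point per tested gene. Red points were called higher in fetal liver (1887) and blue points lower (1789), and the genes farthest from the diagonal include Igf2bp1 above it and Sdsl below it.

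A few genes came close to being silent in one of the tissues. 7 genes reached at least 10 CPM in every fetal library while staying under 1 CPM in every adult one, and 12 genes did the reverse. The fetal genes were Cdh17, Evc2, Fscn1, Igf2bp1, Lin28b, Nes and St8sia1. Igf2bp1, an RNA-binding protein that stabilises growth messages (chromosome 11, 95957163 to 96005944 in GRCm38.p6), was at 218, 184 and 218 CPM in fetal libraries 1, 4 and 5 and at 0.844, 0.234 and 0.329 CPM in adult libraries 2, 5 and 6. Its difference was 422-fold (log2 8.72 ± 0.51 SE, adjusted p = 1.94e-08). Lin28b, the fetal blocker of let-7 microRNA maturation, was at 89.3, 99.6 and 124 CPM against 0.745, 0.0586 and 0.274 CPM, a 273-fold difference (adjusted p = 7.9e-09). Fscn1, which bundles actin filaments, was at 67.5 to 84.5 CPM against 0.274 to 0.496 CPM, and Nes, an intermediate filament protein of many embryonic cells, at 25.4 to 27.7 CPM against 0.0586 to 0.383 CPM.

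The adult genes of this kind were AW112010, Cd177, Cdkn2c, Chil3, H2-Q5, Ifi44, Neurl1b, Nlrc5, Sdsl, Slc16a11, Slpi and Tgtp1. Cdkn2c has 2 transcripts and reads that fit both were not counted, so its low count does not show that it was nearly silent in fetal liver. Nlrc5, the transcriptional activator of MHC class I genes (chromosome 8, 94434335 to 94527272), was at 46.5, 46.3 and 46.7 CPM in the adult libraries and at 0.908, 0.754 and 0.573 CPM in the fetal ones (61.2-fold lower, adjusted p = 1.49e-09). Sdsl, a serine dehydratase-like protein, was at 44.7 to 52.2 CPM against 0.108 to 0.772 CPM, 124-fold lower in fetal liver. Chil3, Cd177 and Slpi, all known from neutrophils and related myeloid cells, spanned 20.03 to 78.4, 18.9 to 34.8 and 16.5 to 19.1 CPM in adult libraries and stayed under 1 CPM in every fetal library. Further down the list of large falls, Cpne2, a calcium-dependent membrane-binding protein, was 54.1-fold lower, with 158 to 170 CPM in adult libraries and 2.05 to 4.30 in fetal ones.

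Most tested genes of the proteasome, of ribosome assembly and of the tRNA synthetases were higher in fetal liver. Of 32 tested subunits of the 20S and 26S proteasome, the complex that degrades tagged proteins, 31 were called higher and 0 lower, with a median log2 difference of 0.55 against -0.08 over all tested genes. The rises were small and even. Psmd12, a lid subunit, was at 284, 312 and 312 CPM in fetal liver and at 177, 198 and 198 CPM in bone marrow (1.59-fold, adjusted p = 7.92e-06). Psmd3, another lid subunit, was at 374, 381 and 373 CPM against 233, 205 and 212 CPM (1.73-fold), and neither gene's groups overlapped. The member not called, Psma7, has more than 1 transcript in the deposited tables and was counted at 1.09 to 2.52 CPM, so its level rests on few reads.

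The ribosome's supply line moved the same way. Of 63 tested nucleolar factors that assemble ribosomes, 54 were called higher and 0 lower (median log2 0.53). Npm1, nucleophosmin, was at 164, 167 and 180 CPM against 64.6, 56.0 and 70.8 CPM (2.67-fold, adjusted p = 3.85e-07), counted from reads that fit 1 of its transcripts only. Ncl, nucleolin, was at 3554, 3732 and 3591 CPM against 2091, 1648 and 2052 CPM, 1.88-fold higher. Gnl2, a nucleolar GTPase, had the highest CPM of the members not called, at 190 ± 4.86 CPM against 173 ± 12.3 CPM (SD, n = 3 each, adjusted p = 0.156). Of 15 tested cytosolic tRNA synthetases, which load amino acids onto tRNA, 13 were called higher and 0 lower (median log2 0.60). Rars, for arginine, was at 272, 287 and 309 CPM against 160, 150 and 167 CPM (1.82-fold).

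Many mitochondrial genes were higher as well. Of 74 tested proteins of the mitochondrial ribosome, 61 were called higher and 0 lower (median log2 0.50), and of 87 tested subunits of the respiratory chain and ATP synthase, 60 were called higher and 0 lower (median log2 0.43). Mrpl12, of the large mitochondrial subunit, was at 275, 281 and 329 CPM against 160, 143 and 180 CPM (1.84-fold, adjusted p = 1.14e-05). Atp5b, a catalytic chain of ATP synthase, was at 2230, 2527 and 2397 CPM against 1467, 1211 and 1510 CPM (1.71-fold). Hspd1, the mitochondrial chaperonin that folds imported proteins, showed one of the largest gains in CPM of all called genes, at 2228, 2302 and 2215 CPM against 953, 941 and 1030 CPM (2.31-fold, adjusted p = 1.11e-07). Of 25 citric acid cycle and pyruvate entry genes, 15 were higher and 2 lower (60% and 8%, against 13.9% and 13.2% of all tested genes). The 2 lower ones were Pdk2, a kinase that restrains pyruvate dehydrogenase, and Mpc1, a subunit of the pyruvate carrier. Both were named after their values were seen, and Pdk1, a kinase of the same kind as Pdk2, was among the 15 that rose.

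Genes for the synthesis of nucleotides and DNA moved the same way in part. Of 32 tested enzymes of nucleotide, serine and folate synthesis, 20 were called higher and 0 lower (median log2 0.52), among them Phgdh, the entry enzyme of serine synthesis, at 800, 946 and 932 CPM against 537, 501 and 559 CPM. Of 47 replication proteins, 21 were higher and 2 lower (median log2 0.28). Ccne1, the cyclin that drives entry into DNA replication, was at 85.5, 86.2 and 82.5 CPM against 21.8, 25.4 and 26.2 CPM (3.46-fold, adjusted p = 1.03e-05), the largest rise among the called members. E2f8, a repressor of replication genes, was lower, at 108, 105 and 89.0 CPM against 160, 164 and 160 CPM. Asns, which makes asparagine and is a target of the amino acid stress response, was at 111, 104 and 110 CPM against 31.1, 30.8 and 31.1 CPM (3.49-fold), and Slc2a1, the glucose carrier GLUT1, at 112, 120 and 113 CPM against 32.6, 23.8 and 30.2 CPM (3.99-fold). Carriers as a group did not follow them: of 26 nutrient transporters 5 were higher and 2 lower, with a median log2 difference of 0.04. Their shares were 19.2% and 7.69%, against 13.9% and 13.2% of all tested genes.

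**Figure D2:**
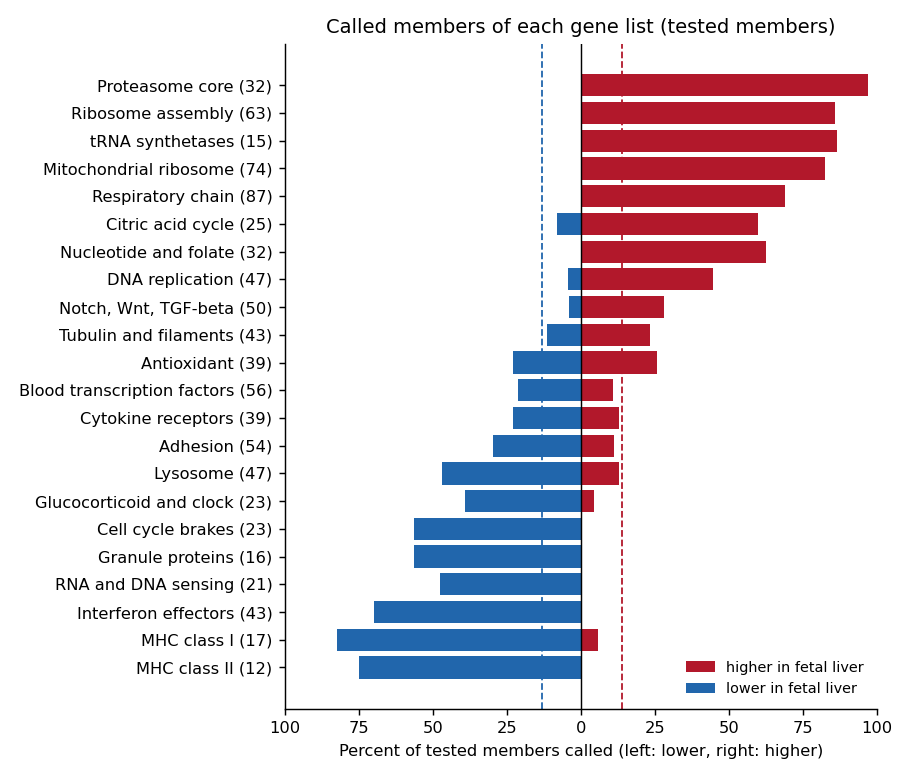
Percent of the tested members of 22 gene lists that were called higher (red, to the right) or lower (blue, to the left) in fetal liver, with the number tested in brackets. Dashed lines mark the shares over all tested genes (13.9% higher, 13.2% lower), and the lists run from the proteasome, with 31 of 32 members higher, to MHC class II, with 9 of 12 lower.

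Genes of the interferon response fell broadly in fetal liver. Of 43 tested antiviral effector genes (50 measured), 30 were called lower and 0 higher, with a median log2 difference of -1.43. Ifi44, an interferon-induced protein, was at 0.0454, 0.269 and 0 CPM in fetal liver and at 15.04, 14.5 and 11.8 CPM in bone marrow (125-fold lower, adjusted p = 2.49e-07). Sp100, a nuclear body protein, was at 14.7, 16.6 and 11.1 CPM against 167, 178 and 145 CPM (11.5-fold lower). Lgals3bp, a secreted galectin-binding protein, was at 39.4, 39.5 and 30.4 CPM against 201, 181 and 188 CPM, and Uba7, the enzyme that activates the ubiquitin-like ISG15, at 33.0, 38.1 and 49.4 CPM against 130, 131 and 133 CPM. In all 4 genes every fetal library lay below every adult one. Slfn9 had the highest CPM of the effectors not called, at 81.8 ± 7.22 against 98.4 ± 8.25 CPM (SD, n = 3 each, adjusted p = 0.125).

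Sensors of foreign RNA and DNA were lower too: 10 of 21 were called lower and 0 higher (median log2 -0.47). Among these Oas3, which makes the second messenger that activates RNase L, was at 1.04, 0.862 and 1.32 CPM against 20.8, 16.5 and 24.98 CPM (19.2-fold lower, adjusted p = 2.08e-06). Casp1, the inflammasome protease, from a list of bacterial sensors with 9 of 31 called lower and 1 higher, was at 10.8, 17.2 and 12.4 CPM against 58.1, 58.0 and 61.8 CPM (4.41-fold lower). The receptors that receive type I interferon were not called. Ifnar1 was at 131 ± 8.74 CPM in fetal liver and 111 ± 11.2 CPM in bone marrow (adjusted p = 0.11), and Ifnar2 at 81.2 ± 3.25 and 89.3 ± 5.53 CPM (adjusted p = 0.384, SD, n = 3 each). Of the 27 tested interferon and cytokine signal transducers, a list that holds Ifnar1 too, 9 were lower and 1 higher (33.3% and 3.70%). The shares were 47.6% lower for the RNA and DNA sensors and 29.0% lower and 3.23% higher for the bacterial sensors. Over all tested genes they were 13.2% lower and 13.9% higher. Usp18, which damps interferon signalling and is induced by it, was at 6.85, 8.83 and 11.6 CPM against 35.8, 34.5 and 40.9 CPM (4.08-fold lower).

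MHC class I genes, which show peptides from inside the cell to T cells, had 14 of 17 tested members lower and 1 higher (median log2 -2.08). H2-K1, a classical heavy chain, was at 203, 216 and 216 CPM in fetal liver and at 1745, 1338 and 1704 CPM in bone marrow (7.55-fold lower, adjusted p = 1.52e-09). H2-D1, the other classical heavy chain of this strain, was at 117, 120 and 131 CPM against 871, 883 and 857 CPM (7.1-fold lower, adjusted p = 2.25e-11). B2m, the light chain shared by all class I molecules, was at 347, 366 and 380 CPM against 1395, 1101 and 1461 CPM (3.62-fold lower), and Tap2, of the peptide pump, at 146, 142 and 133 CPM against 411, 388 and 373 CPM. The member that was higher was Pdia3, a general disulfide isomerase (1.29-fold). Class I heavy chains are near-identical copies, so how reads were split among them is uncertain.

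Peptide supply to class I split between its forms of the proteasome. Psmb9 and Psmb8, catalytic subunits that interferon swaps into the immunoproteasome, fell while the constitutive subunits rose. Psmb9 was at 40.03, 44.1 and 46.3 CPM in fetal liver and at 127, 113 and 130 CPM in bone marrow (2.83-fold lower, adjusted p = 2.55e-06), and Psmb8 at 263, 277 and 304 CPM against 580, 613 and 611 CPM (2.14-fold lower). The remaining catalytic subunit of that form, Psmb10, was not called, at 114 ± 10.8 against 119 ± 8.68 CPM (SD, n = 3 each, adjusted p = 0.712), and neither was the activator subunit Psme1.

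MHC class II genes, which present antigens taken up from outside, had 9 of 12 tested members lower and 0 higher (median log2 -1.97). H2-DMa, of the peptide loading complex, was at 36.0, 44.6 and 44.2 CPM against 178, 191 and 173 CPM (4.34-fold lower, adjusted p = 2.13e-08). H2-Ob, an inhibitor of that loading, was at 8.76, 10.6 and 8.48 CPM against 74.4, 71.0 and 77.6 CPM (8.01-fold lower). H2-Aa, a chain of the class II molecule, was counted at most at 0.108 CPM in any fetal library and at 2.75 to 8.29 CPM in the adult ones. Rfxap, a factor that binds class II promoters, was not called, at 45.6 ± 2.52 against 51.5 ± 2.58 CPM (SD, n = 3 each, adjusted p = 0.221).

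**Figure D3:**
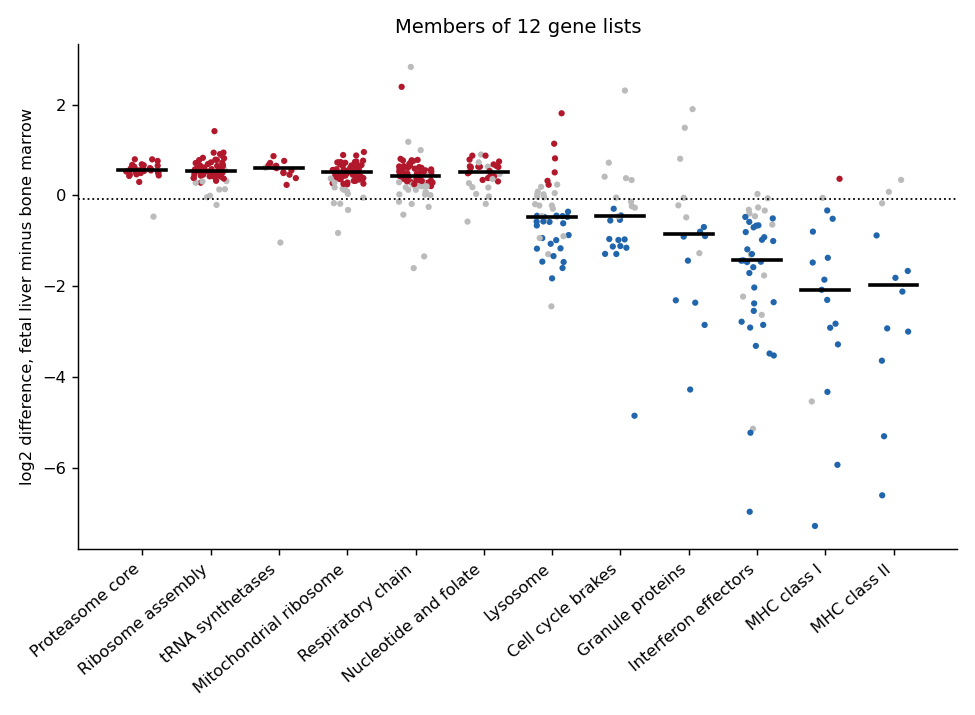
Log2 difference of each tested member (fetal liver minus bone marrow, vertical) in 12 gene lists, coloured red where called higher, blue where called lower and grey where not called. Black bars are list medians and the dotted line is the median of all tested genes (-0.08). The growth lists on the left sit in tight bands just above 0, and the immune lists on the right spread far below it.

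Promoters of the immune genes were read for the core of the interferon-stimulated response element, GAAANNGAA on either strand, in RefSeq windows from 250 bases before to 50 bases after the start (GRCm38.p6). The core was in 48.8% of the 43 windows of the antiviral effector list and in 7.43% of the 12652 windows of all tested genes. Windows of interferon-inducible GTPases held it in 53.8% (13 windows), those of the RNA and DNA sensors in 41.2% (17 windows), those of MHC class I in 33.3% (12 windows) and those of MHC class II in 0 of 10. Among genes at least 4-fold lower in fetal liver, 12.6% of 301 windows held it. The stretches below come from the 4 called effector or class I genes with the smallest adjusted p among those that hold the core, given on the gene's strand with the core in capitals. They are shown because these genes are among the clearest falls: H2-T23, a non-classical class I chain, averaged 68.6 CPM in fetal liver and 290 CPM in bone marrow, and Phf11b 0.644 and 7.24 CPM. The windows lie at chr17:36032786-36032854, chr2:122147518-122147586, chr3:151749875-151749943 and chr14:59341342-59341410, in the order printed, and those of H2-T23, Ifi44 and Phf11b are on the minus strand.
H2-T23: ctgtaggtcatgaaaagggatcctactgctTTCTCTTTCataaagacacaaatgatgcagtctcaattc
B2m: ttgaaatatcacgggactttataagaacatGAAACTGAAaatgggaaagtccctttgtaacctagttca
Ifi44: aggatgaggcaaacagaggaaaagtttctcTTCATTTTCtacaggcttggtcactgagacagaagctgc
Phf11b: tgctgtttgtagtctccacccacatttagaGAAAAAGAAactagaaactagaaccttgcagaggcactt
The core began 123 bases before the start in H2-T23, 139 in B2m, 3 in Ifi44 and 50 in Phf11b. In H2-T23 and Ifi44 it lies on the opposite strand. For the growth lists, a pair of E2F motifs (TTTGGCGC or TTTCCCGC) was in 29.8% of 47 replication gene windows against 2.71% of all, and the NRF1 motif GCATGCGC in 16.9% of 77 respiratory chain windows against 4.497% of all. The ribosome assembly windows (58) held each kind at 3.45%, the mitochondrial ribosome windows (71) held NRF1 at 11.3% and E2F at 1.41%, and the respiratory chain windows held E2F at 2.60%. The proteasome windows (28) held each kind at 7.14%. A match is a description of the letters and not evidence that a factor binds there.

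Many tested genes that restrain the cell cycle were lower in fetal liver. Of 23 tested brakes and p53 targets (32 measured), 13 were called lower and 0 higher (median log2 -0.46). The inhibitors Cdkn1a, Cdkn1c and Cdkn2a, with 2 transcripts each, had at most 1 count in either tissue and were not tested. Cdkn2c, the inhibitor p18 of the kinases CDK4 and CDK6, was at 0.726, 0.485 and 0.229 CPM in fetal liver and at 13.4, 15.8 and 14.2 CPM in bone marrow (28.9-fold lower, adjusted p = 8.9e-09), from reads that fit 1 of its transcripts only. Ccng2, an atypical cyclin linked to arrest, was at 58.7, 79.3 and 63.0 CPM against 152, 197 and 142 CPM (2.44-fold lower), and Btg1, an antiproliferative gene, at 48.2, 60.1 and 49.1 CPM against 108, 95.5 and 105 CPM. Cdkn1b, the inhibitor p27, fell by 1.13 ± 0.23 SE on the log2 scale. Ccng1, a p53 target, was not called (adjusted p = 0.311).

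Of 24 tested genes of the BCL2 family, caspases and death receptors, 3 were higher and 5 lower, shares of 12.5% and 20.8% against 13.9% and 13.2% of all tested genes. Bcl2, the founding anti-apoptotic protein, was at 38.4, 36.6 and 32.7 CPM against 221, 219 and 203 CPM (5.96-fold lower, adjusted p = 6.03e-11), again from transcript-specific reads. Pmaip1, the pro-apoptotic protein NOXA, was at 27.9, 32.5 and 28.8 CPM against 5.81, 6.21 and 3.94 CPM (5.59-fold higher). Bax, a pore-forming effector, was 1.42-fold higher. Mcl1, another anti-apoptotic member, was not called, at 322 ± 10.4 against 276 ± 23.9 CPM (SD, n = 3 each, adjusted p = 0.191). Fas, a pro-apoptotic death receptor, was lower in fetal liver, at 0.0454, 0.162 and 0.287 CPM against 2.04, 1.76 and 1.81 CPM (11.3-fold, adjusted p = 0.0016), from transcript-specific reads.

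Inhibitors of basic helix-loop-helix factors were among the clearest rises. Id3 was at 31.0, 28.6 and 32.6 CPM in fetal liver and at 1.09, 0.761 and 0.274 CPM in bone marrow (42.5-fold higher, adjusted p = 9.69e-07). Id1 was at 24.8, 26.1 and 31.6 CPM against 1.64, 1.05 and 1.92 CPM (17.8-fold higher). Id2 was at 28.3, 20.3 and 21.3 CPM against 4.42, 3.05 and 6.13 CPM (5.13-fold higher, adjusted p = 0.0135). All 3 encode proteins that capture E proteins and keep them off DNA, and they are known targets of bone morphogenetic protein signalling. Id1 and Id3 were named by rule and Id2 after its value was seen. Smad6, an inhibitor of that signalling and likewise its target, was at 14.3, 17.9 and 15.5 CPM against 6.16, 7.61 and 4.98 CPM (2.54-fold higher), also named after its value was seen.

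These genes stood among 56 tested blood transcription factors of which 6 were higher and 12 lower. The shares were 10.7% and 21.4%, against 13.9% and 13.2% of all tested genes. Nfil3, a factor of innate lymphoid development, was higher at 37.4, 36.1 and 31.2 CPM against 11.2, 8.73 and 9.86 CPM (3.52-fold). Gata2, needed for stem cells, mast cells and megakaryocytes, was lower at 208, 229 and 227 CPM against 480, 478 and 457 CPM (2.13-fold). Nfkb1, a subunit of NF-kappaB, was 1.72-fold lower. Sox4, with the highest CPM of the members not called, was at 398 ± 11.3 against 446 ± 37.2 CPM (SD, n = 3 each, adjusted p = 0.214).

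Of 50 tested members of the Notch, Wnt, hedgehog and TGF-beta families, 14 were higher and 2 lower (median log2 0.37). These are shares of 28% and 4%, against 13.9% and 13.2% of all tested genes. Evc2 and Evc, partner proteins that pass the hedgehog signal on at the cilium, lie side by side on chromosome 5 (37338478 to 37425055 and 37288970 to 37336947). Evc2 had 18.5, 17.1 and 21.9 CPM in fetal liver and 1 count over the 3 adult libraries, a ratio of 1057 with a 95% counting interval of 189 to 41785. Evc had 7.67, 6.19 and 14.2 CPM and 2 adult counts, a ratio of 254 (70.0 to 2104). These intervals cover counting error only. Hes1, the best known target of Notch, was at 9.99, 6.03 and 8.48 CPM against 0.199, 0 and 0.931 CPM (21.3-fold higher, adjusted p = 0.00808), and Notch1 itself at 80.6, 75.3 and 78.0 CPM against 42.0, 38.4 and 41.8 CPM (1.91-fold higher). Both were named after their values were seen. Fzd9, a Wnt receptor, was at 18.4, 17.9 and 19.9 CPM against 1.54, 1.87 and 1.31 CPM (11.8-fold higher).

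**Figure D4:**
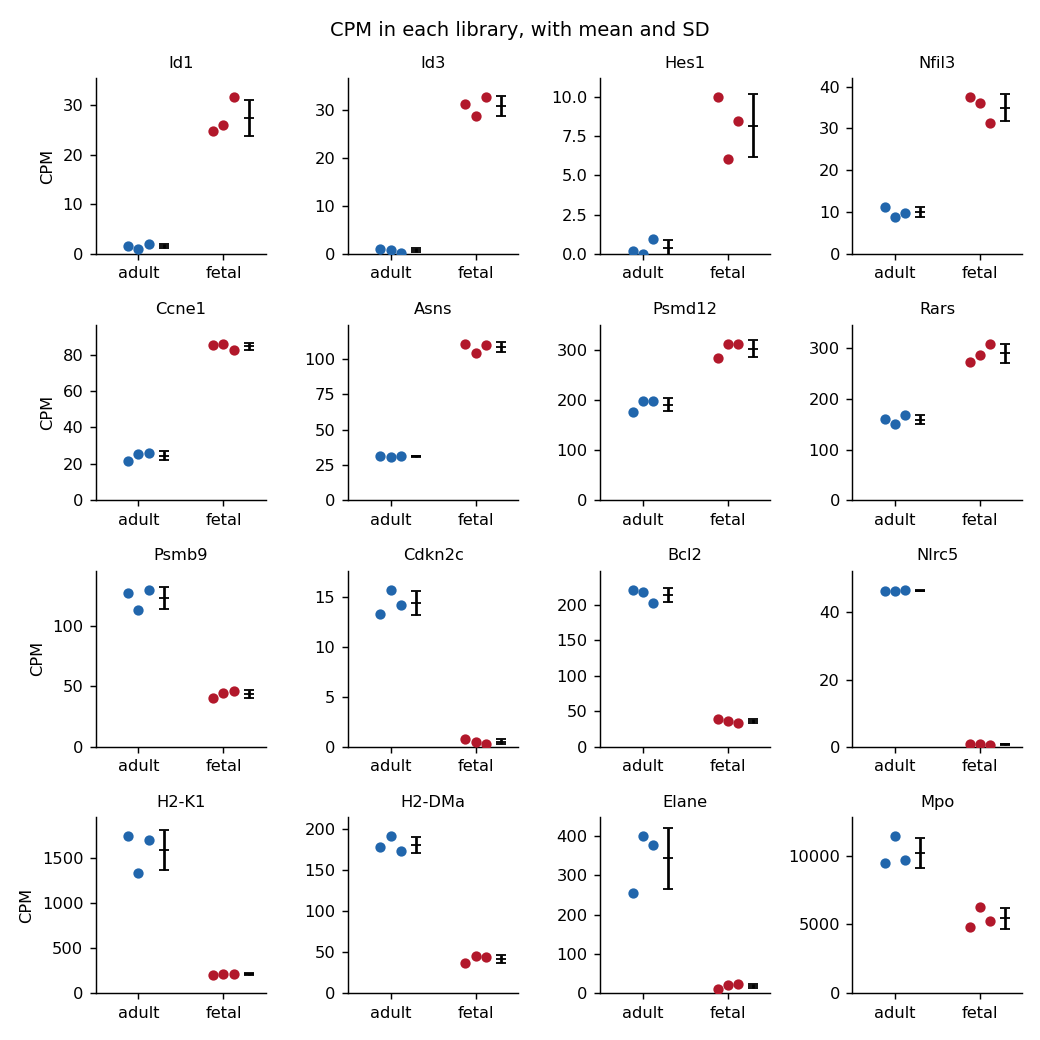
CPM in each of the 3 adult (blue) and 3 fetal (red) libraries for 16 genes, on linear axes from 0, with the mean and SD in black. Id1, Id3, Hes1, Nfil3, Ccne1, Asns, Psmd12 and Rars lie higher in every fetal library, and Psmb9, Cdkn2c, Bcl2, Nlrc5, H2-K1, H2-DMa, Elane and Mpo lower.

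Proteins of the primary granules, which promyelocytes make, were lower in fetal liver: 9 of 16 tested members were called lower and 0 higher (median log2 -0.85). Elane, neutrophil elastase, was at 11.1, 20.2 and 22.2 CPM in fetal liver and at 256, 400 and 377 CPM in bone marrow (19.4-fold lower, adjusted p = 6.44e-05). Mpo, myeloperoxidase, differed less, at 4806, 6296 and 5221 CPM against 9494, 11442 and 9687 CPM (1.88-fold lower, adjusted p = 0.00132). Prtn3, proteinase 3, was not called, at 371 ± 50.8 against 519 ± 55.7 CPM (SD, n = 3 each, adjusted p = 0.114).

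The summed CPM of markers of several other cell types was lower alongside these genes, and for some types it was higher. Over all tested genes 13.9% were called higher and 13.2% lower. A list of 12 maturing neutrophil markers summed to 37.6 to 69.1 CPM in the fetal libraries and 489 to 1104 CPM in the adult ones, and 9 of its 11 tested members were called lower. Of the list, S100a9, which has more than 1 transcript, was at 0 in every library. Ngp, of the secondary granules, was at 15.02, 1.35 and 0.401 CPM in fetal libraries 1, 4 and 5 and at 186, 213 and 403 CPM in adult libraries 2, 5 and 6, so fetal library 1 and adult library 6 were the highest of their groups. Macrophage markers summed to 13.2 to 19.4 CPM against 59.1 to 70.0 CPM (7 of 13 tested members lower, 1 higher), and T and NK cell markers to 61.0 to 68.8 CPM against 377.5 to 378.2 CPM, mostly Nkg7, with 3 of 10 tested members lower and 2 higher. Megakaryocyte markers summed to 145 to 172 CPM against 417 to 589 CPM, with 6 of 9 tested members lower and 0 higher. Markers of mast cells, basophils and eosinophils summed to 114 to 184 CPM against 341 to 465 CPM (4 of 13 lower, 1 higher). The other way round, B lineage markers summed to 138 to 166 CPM in fetal liver against 81.2 to 87.8 CPM (3 of 12 higher, 1 lower). Stem cell markers summed to 204 to 220 CPM against 142 to 171 CPM (2 of 10 higher, 0 lower). The shares of the T and NK (30% lower, 20% higher), B lineage (25% higher, 8.33% lower) and stem cell lists (20% higher) rest on few genes. They do not set these lists apart from all tested genes. Single stem cell markers did not follow their sum: 7 of the 10 had a negative log2 difference and 3 a positive one (median -0.58). The part of these cells in the granule, MHC and interferon results was not tested. In bulk RNA, fewer cells of a type and less RNA per cell cannot be told apart.

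The labelled cell type was checked against its own markers. A list of 12 myeloid progenitor markers summed to 5326 to 6964 CPM in fetal liver and to 10658 to 12778 CPM in bone marrow, mostly Mpo. Of its 9 tested members 6 were lower and 1 higher, shares of 66.7% and 11.1% against 13.2% and 13.9% of all tested genes. Kit and Cebpa, defining genes of these cells, were at 0 in every library. Both have several transcripts, and reads that fit more than 1 transcript were not counted, so a level of 0 does not show that they were silent. Hepatocyte markers summed to 123 to 132 CPM in fetal liver and 353 to 402 CPM in bone marrow, mostly from Trf, the iron carrier transferrin, and Hnf4a, a liver transcription factor. Trf was at 93.5, 101 and 98.8 CPM in fetal liver and at 324, 372 and 315 CPM in bone marrow, and Hnf4a at 25.6 ± 1.46 and 28.0 ± 3.61 CPM (SD, n = 3 each, not called). Alb, albumin, was at most 0.70 CPM in any fetal library and Apoa1, an apolipoprotein, at most 0.592 CPM, while Afp, alpha-fetoprotein, was at 1.78 to 3.50 CPM. Serpina1a and Ahsg were at 0, but both have several transcripts, as Kit and Cebpa do.

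**Figure D5:**
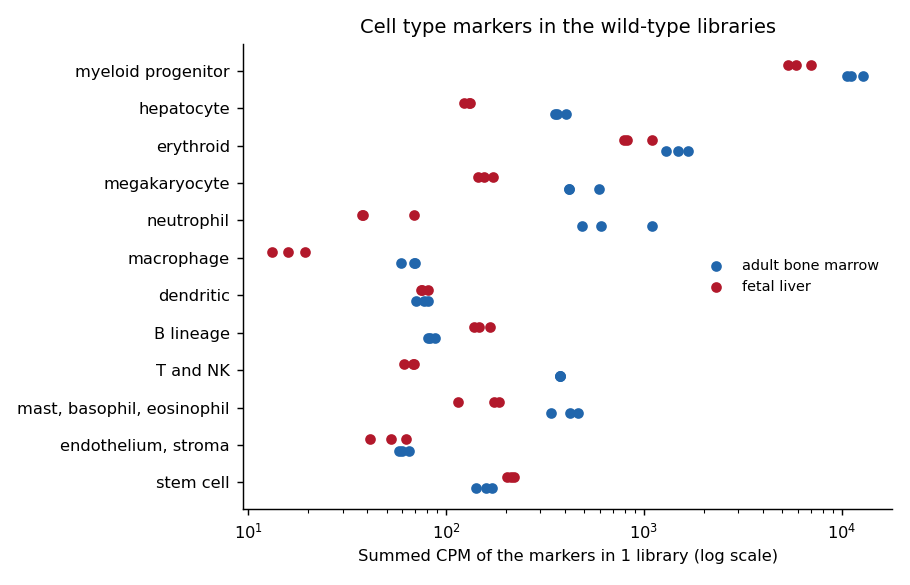
Summed CPM (log axis) of 12 cell type marker lists in each adult (blue) and fetal (red) library. Neutrophil markers are farthest apart (37.6 to 69.1 against 489 to 1104 CPM), and dendritic cell markers overlap.

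Surface proteins that bear on sorting and on growth factor responses differed in part. Of 15 tested proteins used in progenitor gates, 1 was higher and 4 lower, shares of 6.67% and 26.7%. Over all tested genes the shares were 13.9% and 13.2%. Il7r, the receptor for interleukin 7, was at 37.1, 24.9 and 22.8 CPM in fetal liver and at 0.496, 1.76 and 2.63 CPM in bone marrow (17.4-fold higher, adjusted p = 6.01e-05). Itga2b, the integrin CD41 of megakaryocytes and early blood cells, was at 89.1, 82.3 and 74.3 CPM against 319, 245 and 249 CPM (3.31-fold lower). Flt3, the receptor of multipotent and lymphoid-primed progenitors, was not called, at 400 ± 17.9 against 386 ± 32.1 CPM (SD, n = 3 each, adjusted p = 0.876). Of 39 cytokine receptors, 5 were higher and 9 lower, shares of 12.8% and 23.1%, so the higher share was near that of all tested genes. The receptors for interleukin 3 (Il3ra, 1.98-fold), for GM-CSF (Csf2ra, 2.23-fold) and for interleukin 27 (Il27ra, 2.90-fold) were lower in fetal liver.

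The let-7 microRNAs, the stated concern of the series, repress messages that match bases 2 to 8 of the microRNA, its seed. Mature microRNAs were not analysed here. The 9 mature let-7 and miR-98 sequences in RefSeq share the seed GAGGUAG, shown in capitals in members from 3 different hairpins.
mmu-let-7a-5p: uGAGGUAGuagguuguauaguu
mmu-let-7b-5p: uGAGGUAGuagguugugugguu
mmu-let-7g-5p: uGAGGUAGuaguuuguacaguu
The complement of the seed, CTACCTC, was sought in the longest GENCODE 3′ untranslated region of each gene. It was present in 10.3% of the 12185 tested genes with such a region, in 11.2% of genes called higher, in 10.2% of genes called lower and in 14.2% of those at least 4-fold higher (226 genes). Per kilobase there were 0.102 sites in genes called higher, 0.0637 in genes called lower and 0.0745 in all tested genes. The share of genes with a site was close to the background in the called genes as a whole, but it takes no account of region length. The median region had 874 bases in genes called higher, 1221.5 in genes called lower and 1113 in all tested genes. Genes at least 4-fold higher had 0.128 sites per kilobase. Those at least 4-fold lower had 0.0891, with a site in 11.9% of them. These differences were not tested. The region of Lin28b holds 4 sites, and so do those of Hmga2 and Igf2bp1. Igf2bp3 and Igf2bp2, which were 70.7-fold and 35.8-fold higher in fetal liver, hold 1 site each. Arid3b and Plagl2, also looked up, hold 1 site each as well. The first site is printed for Lin28b, Hmga2 and Igf2bp1 only, with the match in capitals.
Lin28b: tcacccgggcgggaagtCTACCTCatgcaa
Hmga2: gcgccgacattcaatttCTACCTCagcatc
Igf2bp1: gtgctgtgcgaagtaaaCTACCTCaaggtg

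Among 22 tested genes of the LIN28 and let-7 axis, 12 were higher and 3 lower in fetal liver. The shares were 54.5% and 13.6%, against 13.9% and 13.2% of all tested genes, so the lower share was near background. Hmga2, a chromatin protein of embryonic growth, was at 535, 520 and 542 CPM against 31.9, 28.5 and 35.4 CPM (16.7-fold higher, adjusted p = 9.24e-10). The enzymes of microRNA processing changed less: Dicer1, which cuts the hairpin, was 1.48-fold higher, and Xpo5, which exports it, 1.49-fold higher. The terminal uridylyltransferases that mark let-7 precursors for decay were lower, Tut4 by 1.33-fold and Tut7 by 1.43-fold. These 4 were named after their values were seen. Dgcr8, the partner of the nuclear processing enzyme, was not called, at 105 ± 8.28 against 98.6 ± 8.21 CPM (SD, n = 3 each, adjusted p = 0.565).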

How the data were processed

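RNA was measured in sorted common myeloid progenitors, with total RNA and SMARTer ultra-low-input chemistry per the labels' protocols. Tools listed in the submitters' processing notes are cutadapt, TopHat2 and HTSeq, with build mm10, with versions and strand not given in the sources used here. Per the file contents, deposited values are raw read counts per RefSeq transcript, made by the authors. Tests had been planned on counts per gene, so counts were summed per gene: 33818 accessions gave 24412 genes. Ambiguous reads (24.3% to 26.4% of uniquely placed reads in wild-type libraries) and reads outside transcripts entered neither library sizes nor tests. Of 5111 genes with several transcripts, 1328 had a total of 0.

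All 17 libraries in 7 groups were fitted with edgeR 4.0.16 (R 4.3.3; TMM, filterByExpr, quasi-likelihood, 10 residual degrees of freedom), checked on simulated counts. A fold is the fitted one, and its SE is the log2 difference divided by the root of the F statistic, an approximation. CPM use TMM library sizes. Values of 3 counts or fewer carry 95% counting intervals. Replicate libraries differed by more than counting noise, so each was counted once. DESeq2 1.42.0, other filters, normalizations and sample sets, and leaving out each library were alternatives, and corrections for transcript length and GC content were added after seeing the data.

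Members and gene lists were chosen with earlier results of these data known. Named by rule were the 12 largest rises and 12 largest falls among non-overlapping called genes with at least 20 CPM in the higher group, the 10 largest changes in mean CPM each way, and from each list at most 4 called members by smallest adjusted p plus the uncalled member with the highest CPM. The rule skipped predicted genes, pseudogenes, small RNAs and the sex-linked Xist and Y genes. Genes near silent in 1 tissue were taken in full by the 10 and 1 CPM limits, added after seeing the data. Other genes outside the rule serve as markers or are examples chosen after their values were seen. Sequences are from RefSeq (GRCm38.p6) and GENCODE vM21.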

Additional observations from a re-analysis of the deposited data

How the results depend on the processing

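No paired analysis was possible because the fetal libraries (1, 4 and 5) and adult libraries (2, 5 and 6) share only the number 5. The counts of higher and lower genes stayed within 1.5 times under every alternative run. DESeq2 called 2029 higher and 2079 lower, and a fit of the wild-type libraries alone 2443 and 2419 of 10312 genes. Where a mean of 5 CPM in either tissue was required, 1830 were higher and 1699 lower of 7837. The share of all genes called thus rises when fewer low-count genes are tested. List shares a little above 13.9% or 13.2% are therefore not set apart from all genes. Examples are the Polycomb, lipid mediator, cytokine receptor, blood transcription factor and BCL2 family lists. Leaving out 1 library gave 1484 to 1723 higher and 1307 to 1454 lower. Corrections for transcript length (2212 higher, 1414 lower) and GC content (2269 and 1473) moved the higher share of calls from 51.3% to 61.0% and 60.6%. The median log2 difference was 0 in the shortest of 5 equal classes of transcript length and -0.21 in the longest. Genes with no overlap and at least 16-fold difference fell from 208 to 77 when a mean of 5 CPM in either tissue was required. Tested genes fell less steeply, from 13556 to 7837, so the count of such large differences depends on genes with low CPM. The proteasome kept 31 higher members under every alternative, ribosome assembly 52 to 56, the respiratory chain 53 to 66, interferon effectors 26 to 33 lower and MHC class I 12 to 14 lower. Of 203 called genes named by rule, 196 kept the call in every alternative that tested them and 0 reversed. Fads1, Gadd45a, Hspa8, Rac1 and S100a13 lost it without some library, and Atm and Tet3 under the length correction. Depth limits genes under about 1 CPM and those with several transcripts.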

Other observations

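Of 47 tested lysosomal genes, 22 were called lower in fetal liver, 6 higher and 19 neither (median log2 -0.47). The shares were 46.8% lower and 12.8% higher, against 13.2% and 13.9% of all tested genes. Grn, progranulin, a secreted lysosomal regulator, was at 41.7, 46.7 and 50.4 CPM against 136, 126 and 120 CPM (2.75-fold lower), while Lgmn, the protease legumain, was higher at 18.7, 16.9 and 10.5 CPM against 5.36, 4.10 and 3.67 CPM (3.50-fold). Macrophage markers moved with this group (13.2 to 19.4 against 59.1 to 70.0 CPM), and their part was not tested. Glucocorticoid targets and clock genes had 9 of 23 members lower and 1 higher, shares of 39.1% and 4.35%. Klf9, a steroid-induced factor that slows the cell cycle, was at 2.90, 1.99 and 3.78 CPM against 11.3, 17.2 and 21.6 CPM (5.76-fold lower), and Nr3c1, the glucocorticoid receptor, was 1.62-fold lower. The higher member was Mt1, a metal-binding metallothionein, at 49.0, 40.3 and 38.1 CPM against 10.2, 9.60 and 15.1 CPM (3.65-fold).

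Lipid mediator genes changed in both directions, with 6 of 22 higher and 4 lower. Their shares were 27.3% and 18.2%, against 13.9% and 13.2% of all tested genes. Ptgs1, the cyclooxygenase that makes prostaglandin precursors, was at 118, 131 and 114 CPM in fetal liver against 34.4, 23.7 and 22.5 CPM (4.498-fold higher), while Tbxas1, which turns the product into thromboxane, was at 4.45, 4.63 and 4.87 CPM against 65.8, 49.5 and 52.9 CPM (12.1-fold lower). Cpt1a, the gate of fatty acid import into mitochondria, was at 35.9, 41.4 and 46.5 CPM against 163, 129 and 136 CPM (3.46-fold lower). Of 24 tested genes of fatty acid oxidation 3 were higher and 2 lower. These shares, 12.5% and 8.33%, were near the 13.9% and 13.2% of all tested genes. Fads2 and Scd2, which desaturate fatty acids, were 2.01-fold and 1.84-fold higher. Of 15 tested imprinted genes 6 were higher and 0 lower, a higher share of 40% against 13.9% of all tested genes. Ndn, necdin, a growth suppressor, was at 25.9, 27.7 and 33.6 CPM against 1.34, 1.64 and 1.15 CPM (21.1-fold), while Igf2r, a receptor that removes IGF2 from the cell surface, was at 21.4, 23.9 and 26.9 CPM against 4.22, 2.75 and 3.83 CPM (6.66-fold). Polycomb subunits had 6 of 26 higher and 5 lower, shares of 23.1% and 19.2% against 13.9% and 13.2% of all tested genes. The all-gene shares are larger under the stricter filter (1830 higher and 1699 lower of 7837 genes), so the Polycomb shares are not read as above background.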
